A study of Mus musculus with 14 samples.

Results

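The genes described here build, turn over and anchor the actin cytoskeleton of the cell. They comprise 45 genes picked by gene symbol from the 54332 rows of the authors' expression table, and all 45 were found. The cells were epidermal stem cells (EpdSCs), the stem cells of the basal layer of the epidermis, sorted from the back skin of CD1 mice of the genotype K14rtTA; TRE-myc-Sox9, labelled male. In these mice a MYC-tagged *Sox9* transgene is read only where the keratin 14 promoter, active in basal keratinocytes, drives the rtTA activator, and the activator needs doxycycline (DOX). There were 2 libraries, labelled as biological replicates, at each of 5 timepoints: D0, the start of DOX at postnatal day 21, and W1, W2 and W6, after 1, 2 and 6 weeks of DOX at postnatal days 28, 35 and 63. The W12 cells came from newborn skin of this genotype that had been grafted onto immunocompromised Nude female hosts, had healed for 21 days and was then kept on DOX for 12 weeks. D0 libraries carried the same alleles as all others, and no library without the transgenes or from age-matched mice was analysed here, so time on DOX, age and, at W12, the graft cannot be told apart.

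Actin monomers assemble into filaments, which thymosins and profilin feed with monomers, cofilin severs and the Arp2/3 complex branches. Non-muscle myosin II pulls on filaments that tropomyosins coat and that α-actinins, filamin and fascin hold in networks and bundles. Talin, vinculin, zyxin and paxillin couple these filaments to integrins, the ERM proteins (ezrin, radixin and moesin) couple them to the plasma membrane, and small GTPases with the ROCK kinases set where filaments form and contract. In epidermis this machinery holds basal cells to the basement membrane and to each other and is rebuilt when cells migrate, stratify or form a bud.

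Several properties of the libraries bear on the values below. RNA was amplified from low input, and values are TPM, an abundance relative to transcript length that sums to 1000000 in every library, so the depth is unknown and no counting error can be given. In such bulk samples, fewer cells of a type and less RNA per cell cannot be told apart. D0 replicate 2, labelled male, had 4.61 TPM of the female-specific *Xist* and 0.0278 TPM of *Ddx3y*, a gene of the Y chromosome, and both W12 libraries listed *Xist* (5.51 and 3.50 TPM) together with *Ddx3y*. MYC-SOX9 was already listed at 89.6 and 45.6 TPM at D0, against 11.5 and 9.47 TPM for the *Sox9* row, and was between 606 and 3414 TPM in the 8 later libraries. A list of 18 immediate-early and stress genes summed to 35036 and 57477 TPM at D0 against 6822 to 15132 TPM later. A list of 6 endothelial genes summed to 71.1 and 156 TPM at W12, although the sort excluded CD31 (*Pecam1*, 26.1 and 59.8 TPM), against 0.229 to 2.24 TPM before, and the immune list summed to 107 and 130 TPM at W12 through *Cd74*, with *Ptprc* at 0.327 TPM or less. The basal keratinocyte list was high in all libraries, at 57230 and 59892 TPM at D0 and a lower 35134 to 45887 TPM in the 8 later ones, the suprabasal list stood at 11899 to 13555 TPM at W6 and W12 against 1909 to 7344 TPM before. A list of 10 smooth muscle and pericyte genes summed to 12.8 and 27.3 TPM at D0, 42.2 to 54.9 TPM at W1 and W2 and at most 24.4 TPM later. Nearly all of it came from *Cspg4*, *Notch3* and *Mcam*, the last at 2.96 and 3.65 TPM at D0 and 13.3 to 21.2 TPM at W1 and W2, and *Cnn1* and *Rgs5* reached 1.75 and 0.928 TPM at most. Of its defining markers *Myh11* stayed at or under 0.0338 TPM and *Des* at or under 0.0741 TPM. A list of 6 skeletal muscle genes summed to 7.03 and 4.50 TPM at D0 and 10.8 to 26.4 TPM in the later libraries through *Mylpf*, with the other 5 genes each under 1 TPM. The melanocyte list was at 1.27 to 12.8 TPM, and a list of 10 cell cycle genes at 385 to 803 TPM in all libraries but those of W6, which had 996 and 1096 TPM. The part of these signals in the results was not tested.

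The 45 genes together took 2.00% to 2.63% of all transcripts in a library (20021 to 26322 TPM), so the pool as a whole stayed within a narrow range while its composition moved. Most of them were abundant: *Actb* ranked 8, *Tmsb4x* 21 and *Actg1* 37 among all rows by mean TPM, and 35 of the 45 averaged 20 TPM or more. Tests were run on 43 of the 45, whose TPM averaged 1 or more in the 10 libraries, whereas *Mylk* and *Tagln* fell below that level. Changes are given on the scale of log2(TPM + 1), which understates the change of low genes, with the standard error (s.e.) and the P value of limma adjusted over all 13110 genes tested, and a gene is said to be higher or lower where this was under 0.05. Because W1, W2, W6 and W12 were all set against the same D0 libraries, the 4 comparisons are not independent of each other. With 2 libraries a group, an exact permutation test of a single gene could not go below *P* = 0.333.

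**Figure D1:**
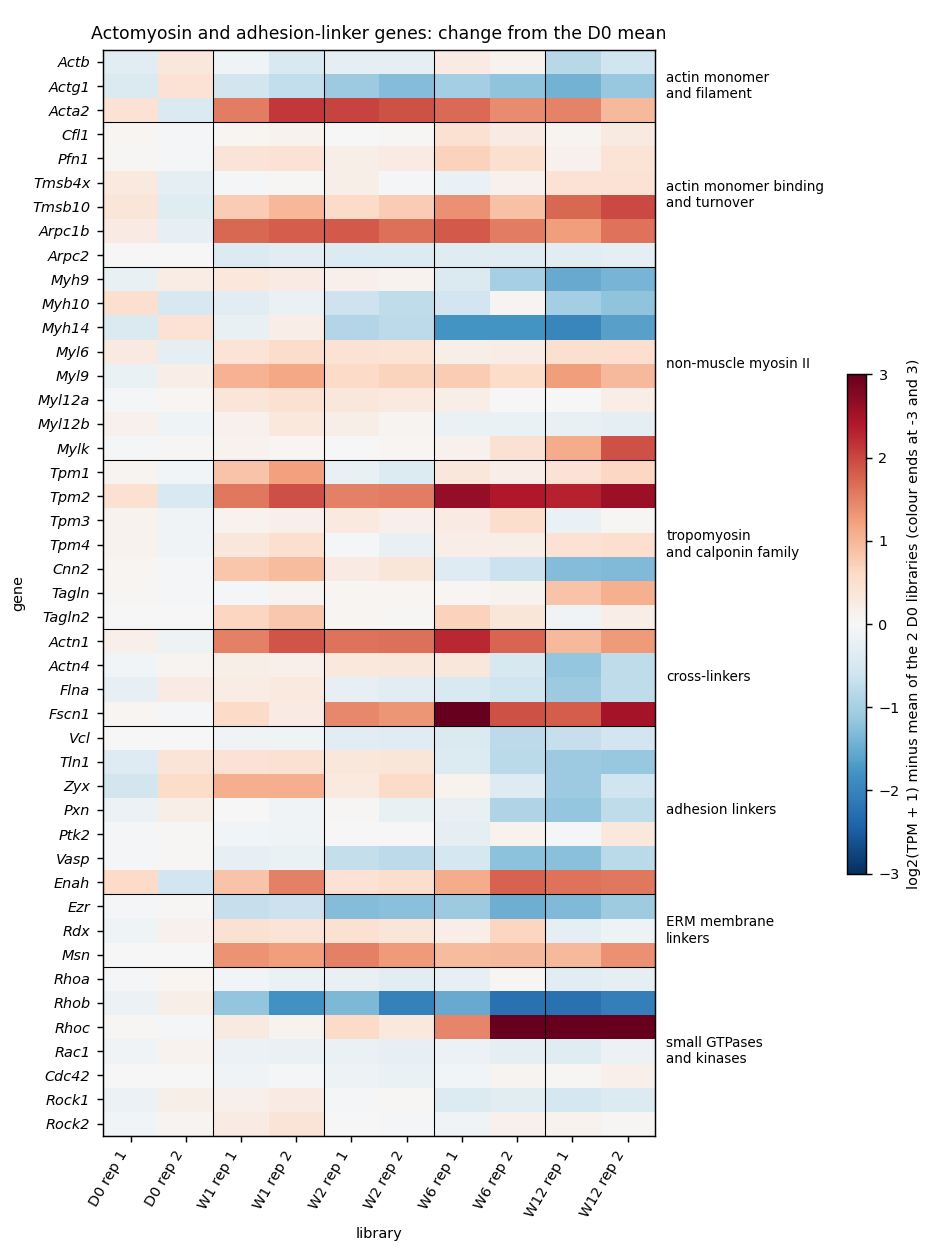
Heat map of the 45 genes (rows, grouped by role) in the 10 libraries (columns), coloured by log2(TPM + 1) minus the mean of the 2 D0 libraries, with colours that end at −3 and 3. *Rhoc*, *Tpm2* and *Fscn1* turn dark red towards W6 and W12, whereas *Rhob*, *Myh14* and *Ezr* turn blue.

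At W1, 11 of the 43 genes differed from D0, 9 higher and 2 lower, which is 25.6% of them beside 9.89% of all genes tested (5.79% higher and 4.1% lower). At W2, 10 differed, 6 higher and 4 lower, or 23.3% beside 15.7% of all genes (9.06% higher and 6.64% lower). At W6, 20 differed, 11 higher and 9 lower, or 46.5% beside 32.4% of all genes (18.3% higher and 14.1% lower). At W12, 27 differed, 12 higher and 15 lower, or 62.8% beside 43% of all genes (17.9% higher and 25.1% lower). The share of these genes that differed from D0 was thus above that of all genes at each timepoint, while the medians of their log2 changes (0.26, 0.07, 0.01 and −0.08) lay near those of all genes (0.09, 0.06, 0.08 and −0.08). Among the 5877 genes of at least 20 TPM, 22.9% of the 35 such cytoskeletal genes and 11.6% of all genes differed at W1, 22.9% and 17.8% at W2, 42.9% and 36.9% at W6, and 57.1% and 47.2% at W12. At each of the 4 timepoints the gap was thus smaller among abundant genes. Between W2 and W6 and between W6 and W12 the share was not above the background: 7 of 43 differed between W2 and W6, 3 higher and 4 lower (16.3%, as among all genes, 16.3%, with 7.99% higher and 8.31% lower), and 6 of 43, all lower, between W6 and W12 (14.0% beside 20.2% of all genes, 6.66% higher and 13.5% lower). With median-ratio scaling 3 differed between W6 and W12, 2 higher and 1 lower (16.4% of all genes differed), and the calls of *Actb*, *Myh9*, *Actn1*, *Actn4* and *Rdx* there were lost (adjusted *P* = 0.0671 to 0.123), so that of the 6 *Cnn2* alone kept its call. Over the whole course, the moderated F test called 28 of 43 (65.1% beside 57.5% of all genes).

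**Figure D2:**
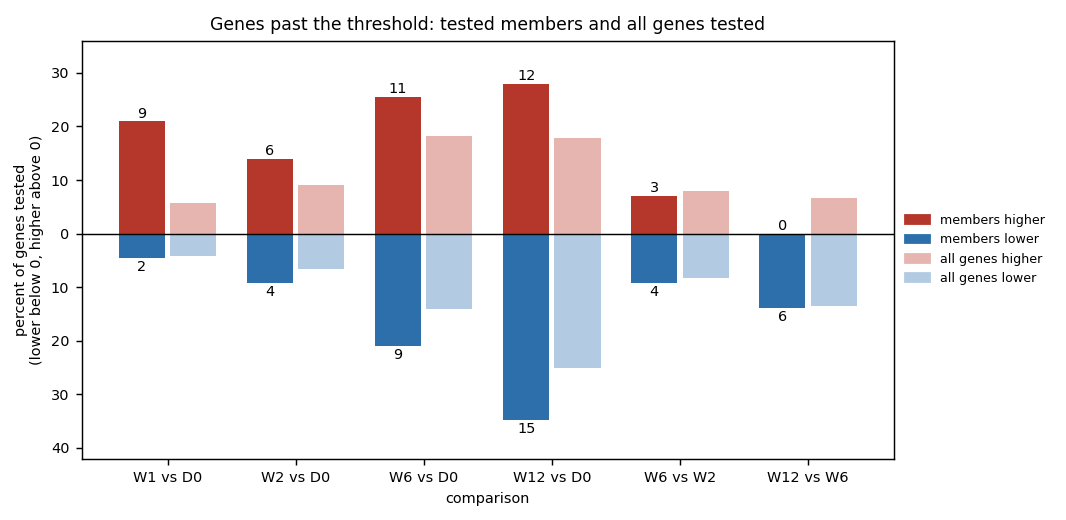
Percent of the 43 tested genes (dark bars, with their number) and of all 13110 tested genes (pale bars) that were higher (red, above 0) or lower (blue, below 0) in each comparison at an adjusted *P* under 0.05. The dark bars are the longer ones in both directions in the 4 comparisons with D0, from 9 higher and 2 lower at W1 to 12 higher and 15 lower at W12.

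These counts rested in part on single libraries. Without W1 replicate 2, 3 of the 43 differed at W1 (2.88% of all genes), without W2 replicate 2, 5 differed at W2 (4.97%), without W6 replicate 2, 13 differed at W6 (26.5%), and without W12 replicate 1, 16 differed at W12 (25.6%). Between W2 and W6, fewer of the 43 and fewer of all genes differed with W6 replicate 2 or either W2 library left out. Between W6 and W12 the same held with W6 replicate 1 or either W12 library left out, and the ranges are in the closing section. Without D0 replicate 2, 10 of the 43 differed at W1, 8 at W2, 10 at W6 and finally 19 at W12, beside 7.86%, 10.9%, 18.0% and 28.5% of all genes, so fewer genes were called in both, and at W1 all 10 were then higher. Of the calls, those that held without any one library and in every alternative that tested them, apart from a limit on the size of the change, were *Arpc1b*, *Actn1* and *Msn* at W1, the same with *Acta2* and *Ezr* at W2, and 8 of 20 at W6 and 13 of 27 at W12. The 13 at W12 were *Tmsb10*, *Arpc1b*, *Myh9*, *Myh14*, *Myl9*, *Tpm2*, *Cnn2*, *Actn1*, *Fscn1*, *Ezr*, *Msn*, *Rhob* and *Rhoc*. By mean TPM, 19 of the 45 genes were lowest at W12 and 17 at D0, and 12 were highest at W1, 11 at D0 and 11 at W12.

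*Actb* and *Actg1* encode the β- and γ-actin of non-muscle cells, which differ in few residues, and *Acta2* encodes the actin of smooth muscle and myofibroblasts. *Actg1* was at 3475 and 6247 TPM at D0, 3198 and 2781 at W1, 2200 and 1885 at W2, 2314 and 2002 at W6, and 1750 and 2113 at W12. From W1 on no library reached the lower D0 value, and *Actg1* was lower than D0 at W2 (log2 change −1.19, s.e. 0.27, adjusted *P* = 0.0189), W6 (−1.11, s.e. 0.27, adjusted *P* = 0.0140) and W12 (−1.28, s.e. 0.27, adjusted *P* = 0.00559). *Actb* was at 4827 and 7649 TPM at D0, then 5569 and 4461, 4950 and 4998, 7254 and 6527, and 3430 and 4004 TPM at W1, W2, W6 and W12. It was lower at W12 than at D0 (−0.71, s.e. 0.24, adjusted *P* = 0.0392) and than at W6 (−0.89, s.e. 0.24, adjusted *P* = 0.0319). *Acta2* was scarce throughout, with 2.83 and 1.13 TPM at D0, 7.32 and 11.5 at W1, 10.6 and 9.73 at W2, 8.29 and 6.57 at W6, and 7.01 and 4.60 at W12. All 8 later libraries were above both D0 libraries, and *Acta2* was higher at each timepoint, most at W2 (1.97, s.e. 0.33, adjusted *P* = 0.00542), with *Actg2*, the other smooth muscle actin, at or under 0.0745 TPM. The smooth muscle and pericyte list had its highest sums (42.2 to 54.9 TPM) at W1 and W2, where the means of *Acta2* were highest, and its part was not tested. The fall of *Actb* at W12 was lost without D0 replicate 2 (adjusted *P* = 0.155), W12 replicate 1 (0.193) or W12 replicate 2 (0.0911), and with median-ratio scaling (0.0983) or quantile normalization (0.0598), and that of *Actg1* at W2 without W2 replicate 1 (0.0734) or W2 replicate 2 (0.134) and at W6 without W6 replicate 2 (0.0688). *Actb* against W6 was lost without any one of the 4 libraries (0.0653 to 0.195), and *Acta2* without W1 replicate 2 at W1 (0.0989), without D0 replicate 2 at W6 (0.0521) and without D0 replicate 2 (0.105) or W12 replicate 1 (0.118) at W12. Both abundant actins had their highest value in D0 replicate 2, the library with the larger sum of immediate-early genes.

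Actin genes are textbook targets of serum response factor (SRF), which binds a CArG box, that is CC, then 6 bases of A or T, then GG. RefSeq promoter windows on GRCm38.p6, from 250 bases before to 50 bases after the start site, were found for 39 of the 45 genes (45 windows). The box stood in 5 of these 45 windows (11.1%) and in 1.63% of all 32851 windows, those of *Actg1*, *Myl6*, *Myl9*, *Cnn2* and *Vcl*. The box of *Myl6* lies 50 bases before a RefSeq start inside the span of the gene. The other 4 are shown for the stretch around the box, 5′ to 3′ on the strand of the gene, with the box in capitals, because their genes passed the test at W12. The boxes start 90 (*Actg1*), 161 (*Myl9*), 56 (*Cnn2*) and 227 (*Vcl*) bases before the RefSeq start site.
Actg1, chr11:120348536-120348625, minus strand: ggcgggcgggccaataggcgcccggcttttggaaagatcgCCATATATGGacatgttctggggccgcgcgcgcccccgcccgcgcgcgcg
Myl9, chr2:156775263-156775352, plus strand: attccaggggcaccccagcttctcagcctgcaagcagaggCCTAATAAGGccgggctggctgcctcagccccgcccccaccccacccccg
Cnn2, chr10:79988504-79988593, plus strand: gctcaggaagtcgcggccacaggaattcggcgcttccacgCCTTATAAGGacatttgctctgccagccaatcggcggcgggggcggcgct
Vcl, chr14:20929148-20929220, plus strand: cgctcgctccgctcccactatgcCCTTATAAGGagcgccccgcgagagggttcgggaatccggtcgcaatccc
At W12 against D0, *Actg1*, *Cnn2* and *Vcl* were lower and *Myl9* was higher, and the call of *Vcl* was lost with a correction for length and GC content (adjusted *P* = 0.215). The other 4 motifs were searched on both strands, and no match overlapped another motif. AP-1 (TGANTCA) was found in 5 member windows, of *Myl12a*, *Mylk*, *Actn4*, *Zyx* and *Ezr*, and in 7.81% of all windows. TEAD (GGAATG) was in 11 member windows (24.4% beside 14.7% of all), RUNX (TGTGGT) in the windows of *Tmsb4x*, *Tmsb10* and *Mylk* (16.8% of all windows), and SOX (ACAATGG) in 2 windows of *Tpm3* (3.66% of all windows).

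Among the proteins that bind monomers and turn filaments over, 1 of 6 genes was higher at W1 and at W2, 3 at W6 and 2 at W12 (beside 5.79%, 9.06%, 18.3% and 17.9% of all genes), and *Arpc2* was the sole member lower, at W2 and W6 (6.64% and 14.1% of all genes). *Arpc1b*, a subunit of the Arp2/3 complex, was at 272 and 196 TPM at D0, 763 and 821 at W1, 833 and 733 at W2, 835 and 667 at W6, and 551 and 714 at W12. The step thus fell between D0 and W1, 3.38-fold by the means (log2 change 1.77, s.e. 0.21, adjusted *P* = 0.00146), and the gene remained higher at W12 (1.44, s.e. 0.21, adjusted *P* = 0.000985). *Arpc2*, another subunit of the same complex, stood at 575 and 582 TPM at D0 and between 435 and 481 TPM in all 8 later libraries. It was lower at W2 (−0.41, s.e. 0.12, adjusted *P* = 0.0463) and W6 (−0.36, s.e. 0.12, adjusted *P* = 0.0440), but without D0 replicate 2 neither call held (0.0664 and 0.0731), nor without either W2 library (0.215 and 0.241) or either W6 library (0.0923 and 0.0953). The 2 subunits of one complex therefore had opposite changes from D0 at W2 and W6.

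*Tmsb10*, which encodes thymosin β10, a small peptide that sequesters actin monomers, was at 159 and 94.1 TPM at D0, 210 and 243 at W1, 183 and 207 at W2, 318 and 225 at W6, and 405 and 486 at W12. Its lowest library was D0 replicate 2 and its highest were those of W12, where it was 3.52-fold higher than at D0 (log2 change 1.85, s.e. 0.26, adjusted *P* = 0.000869). At W6 it was higher by 1.12 (s.e. 0.26, adjusted *P* = 0.0125), a call lost without D0 replicate 2 (0.0615) or W6 replicate 1 (0.0637). At W1 and W2 the differences did not pass (adjusted *P* = 0.0697 and 0.118), though they did without D0 replicate 1 (0.0135 and 0.0200). Its abundant paralogue *Tmsb4x*, at 2728 to 4517 TPM, did not pass at W12 (0.43, s.e. 0.22, adjusted *P* = 0.154). With the correction for length and GC content its W12 change turned negative and passed, with the values given in the closing section. *Pfn1*, which encodes profilin and loads actin monomers onto growing ends, had 1395 to 2328 TPM and was higher at W6 alone among the comparisons (0.59, s.e. 0.16, adjusted *P* = 0.0223), where it had 2328 and 1986 TPM against 1471 and 1395 at D0. That call was lost without D0 replicate 2 (0.0606) or W6 replicate 1 (0.0965). *Cfl1*, which encodes the severing protein cofilin, ranged from 1157 to 1674 TPM and passed in no comparison.

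Of the 7 tested genes of non-muscle myosin II, the motor that contracts actin filaments, 2 were lower at W6 (14.1% of all genes were) and 3 lower with 1 higher at W12 (25.1% and 17.9% of all genes). None passed at W2, where 15.7% of all genes did. The genes lower were heavy chains. *Myh9*, the most abundant of them here, was at 45.3 and 61.6 TPM at D0, 65.9 and 62.9 at W1, 59.1 and 57.1 at W2, 38.5 and 26.0 at W6, and 17.8 and 19.4 at W12. It had no called change through W2, then was lower at W6 than at W2 (log2 change −0.85, s.e. 0.21, adjusted *P* = 0.0310) and at W12 was 2.87-fold lower than at D0 (−1.46, s.e. 0.21, adjusted *P* = 0.000979). *Myh14* was at 20.2 and 37.2 TPM at D0, 23.3 and 31.5 at W1, 14.6 and 15.496 at W2, 7.15 and 7.17 at W6, and 6.32 and 8.13 at W12. In the main fit the change was as large at W6 (−1.80, s.e. 0.28, adjusted *P* = 0.00216) as at W12 (−1.80, s.e. 0.28, adjusted *P* = 0.00140), with libraries that overlapped between these timepoints. The W6 change lay between −2.23 and −1.38 in the alternatives, whereas a correction for length and GC content made the W12 change smaller than that. *Myh10* was scarce, at 3.53 and 1.35 TPM at D0 and 0.623 and 0.413 TPM at W12 (−1.11, s.e. 0.34, adjusted *P* = 0.0298), and this call was lost without D0 replicate 1 (0.153), W12 replicate 1 (0.0822) or W12 replicate 2 (0.125). With the correction for length and GC content the W12 changes were −0.54 for *Myh9* and −0.74 for *Myh14*, and that of *Myh10* did not pass (adjusted *P* = 0.320). The sum of the 3 heavy chains went from 69.0 and 100.2 TPM at D0 to 24.8 and 27.9 TPM at W12, while *Myh9* kept 61.5% to 82.2% of it in every library. *Myh9* was also lower at W6 than at D0 (−0.72, s.e. 0.21, adjusted *P* = 0.0303), which was lost without D0 replicate 2 (0.168) or W6 replicate 2 (0.139), and at W12 than at W6 (−0.74, s.e. 0.21, adjusted *P* = 0.0392), lost without W6 replicate 1 (0.161), without either W12 library (0.194 and 0.110) and with a correction for length and GC content (log2 change −0.14, adjusted *P* = 0.525). The calls against W2 were lost without W2 replicate 1, W2 replicate 2 or W6 replicate 2 for *Myh9* (0.167, 0.134 and 0.116) and without any one of the 4 libraries for *Myh14* (0.0914 to 0.191).

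The myosin light chains did not follow the heavy chains. *Myl6*, the essential light chain, was at 990 to 1734 TPM, and the regulatory light chains *Myl12a* and *Myl12b* at 485 to 687 and 142 to 215 TPM, and none of the 3 passed in any comparison. The rows of the regulatory light chains *Myl12a*, *Myl12b* and *Myl9* together were at 673 and 681 TPM at D0 and 651 and 727 TPM at W12. This sum leaves out *Gm49909*, a row that carries the name Myl12b in GENCODE M21 and was at 1033 to 1408 TPM, so the sum is uncertain. *Myl9*, the regulatory light chain of smooth muscle and contractile cells, was at 0.703 and 1.28 TPM at D0, 3.03 and 3.37 at W1, 1.93 and 2.11 at W2, 2.34 and 1.89 at W6, and 3.69 and 2.89 at W12. Every later library lay above both D0 libraries, and it was higher at W1 (log2 change 1.09, s.e. 0.23, adjusted *P* = 0.0195) and W12 (1.12, s.e. 0.23, adjusted *P* = 0.00525), yet it never made up more than 0.567% of the sum of the 3 rows. The call at W1, where the smooth muscle and pericyte list summed to 54.9 and 47.8 TPM against 12.8 and 27.3 TPM at D0, was lost without D0 replicate 1 (0.0603), W1 replicate 1 (0.0847) or W1 replicate 2 (0.145), and with quantile normalization (0.0694). *Mylk*, the kinase that activates the light chains, was below the tested level, with 0.0170 to 0.447 TPM in the 8 libraries to W6 and 1.25 and 2.95 TPM at W12, where the endothelial list was at 71.1 and 156 TPM, whose part was not tested.

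Tropomyosins lie along the actin filament and set which proteins can bind it, and calponins and transgelins bind the same filaments. Of the 6 tested genes of this family, 4 were higher at W1 (66.7%, beside 5.79% of all genes higher) and none lower. All 4 calls were lost with only the D0 and W1 libraries in the fit, where 3.14% of all genes were called. They also depended on W1 replicate 2, as given below. At W12, 3 were higher and 1 lower (17.9% and 25.1% of all genes). *Tpm2* was at 82.3 and 43.8 TPM at D0, 182 and 232 at W1, 172 and 177 at W2, 381 and 322 at W6, and 301 and 361 at W12. It climbed in 2 steps, by 1.76 on the log2 scale from D0 to W1 (s.e. 0.27, adjusted *P* = 0.00509) and by 1.00 from W2 to W6 (s.e. 0.27, adjusted *P* = 0.0401), and was 5.24-fold higher at W12 than at D0 (2.44, s.e. 0.27, adjusted *P* = 0.000268). The smooth muscle and pericyte list was at 54.9 and 47.8 TPM at W1 and 20.7 and 12.3 TPM at W6, and its part was not tested. *Tpm1* instead peaked early, at 82.4 and 73.1 TPM at D0, 141 and 184 at W1, 66.0 and 58.3 at W2, 98.6 and 88.8 at W6, and 104 and 119 at W12. It was higher at W1 (1.05, s.e. 0.17, adjusted *P* = 0.00597) and W12 (0.52, s.e. 0.17, adjusted *P* = 0.0349) than at D0, and both W2 libraries lay below both D0 libraries without passing the test. *Tpm4*, at 259 to 431 TPM, was higher at W12 by 0.47 (s.e. 0.14, adjusted *P* = 0.0225), and *Tpm3*, at 188 to 312 TPM, passed in no comparison. Without W1 replicate 2, *Tpm1* (0.0619) and *Tpm2* (0.0577) were lost at W1, and without W2 replicate 2 *Tpm2* was lost at W2 (0.0561). At W12, *Tpm1* and *Tpm4* were lost without D0 replicate 2 (0.136 and 0.0791), W12 replicate 1 (0.0698 and 0.0648) or W12 replicate 2 (0.168 and 0.103), *Tpm4* also with quantile normalization (0.0858), and the W6 against W2 calls of *Tpm1* and *Tpm2* were lost without any one of the 4 libraries (0.0879 to 0.234 and 0.0879 to 0.185).

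*Cnn2*, the calponin of non-muscle cells, had 207 and 193 TPM at D0, 358 and 384 at W1, 239 and 260 at W2, 152 and 128 at W6, and 80.7 and 79.9 at W12. It was the clearest case of a rise followed by a fall among the 43 genes, with the lowest *P* value of the F test (adjusted *P* = 6.66e-05): higher by 0.89 at W1 (s.e. 0.13, adjusted *P* = 0.00476), lower by −0.83 from W2 to W6 (s.e. 0.13, adjusted *P* = 0.00764), and lower again by −0.79 from W6 to W12 (s.e. 0.13, adjusted *P* = 0.00611). At W12 it was 2.49-fold below D0 (−1.31, s.e. 0.13, adjusted *P* = 0.000180). *Tagln2*, its abundant relative, also rose at W1, from 934 and 929 to 1457 and 1634 TPM (0.73, s.e. 0.17, adjusted *P* = 0.0277), was back at 973 and 961 TPM at W2, stood at 1503 and 1199 TPM at W6 (0.53, s.e. 0.17, adjusted *P* = 0.0404) and had 865 and 1068 TPM at W12. *Tagln*, the smooth muscle transgelin, was below the tested level, at 0.408 to 0.562 TPM to W6 and 1.62 and 2.06 TPM at W12. The W1 rise of *Cnn2* was lost without W1 replicate 2 (0.0586), its W6 change from D0 (−0.52, s.e. 0.13, adjusted *P* = 0.0192) without W6 replicate 2 (0.0797), and its change from W2 to W6 without W2 replicate 1 (0.0629) or W2 replicate 2 (0.0741). *Tagln2* was lost at W1 without D0 replicate 2 (0.0610), W1 replicate 1 (0.0919) or W1 replicate 2 (0.209), and at W6 without D0 replicate 1 (0.0593), D0 replicate 2 (0.0969) or W6 replicate 1 (0.170). With quantile normalization *Tagln2* was lost at W1 (0.0586) and W6 (0.0878), and with median-ratio scaling at W6 (0.0548).

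**Figure D3:**
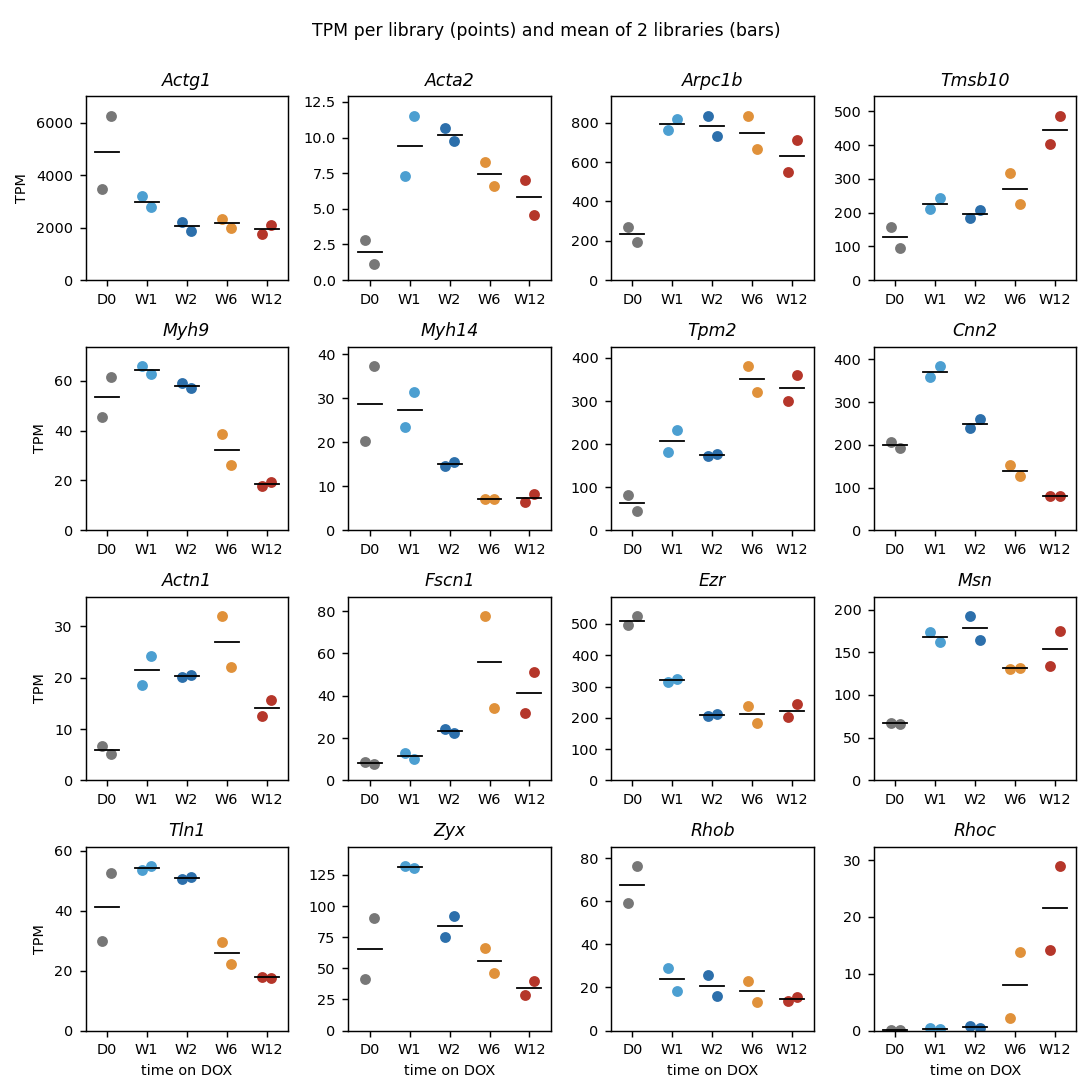
TPM (linear axes that start at 0) of 16 of the genes by time on DOX, from D0 to W12, with a point per library and a bar at the mean of the 2 libraries. *Cnn2* and *Zyx* are highest at W1, *Tpm2* and *Fscn1* at W6, and *Tmsb10* and *Rhoc* at W12, and *Myh9*, *Myh14* and *Ezr* end below D0.

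All 4 cross-linkers differed at W12, where 43% of all genes did, 2 higher and 2 lower, of which the lower 2, *Actn4* and *Flna*, lost their calls with the correction for length and GC content. Within the α-actinins the scarce and the abundant paralogue parted. *Actn1* was at 6.62 and 5.20 TPM at D0, 18.6 and 24.3 at W1, 20.3 and 20.6 at W2, 32.0 and 22.1 at W6, and 12.6 and 15.7 at W12. It was 3.63-fold higher at W1 (log2 change 1.70, s.e. 0.23, adjusted *P* = 0.00278) and 4.57-fold at W6 (2.00, s.e. 0.23, adjusted *P* = 0.000557), came down from W6 to W12 (−0.87, s.e. 0.23, adjusted *P* = 0.0303) and was still above D0 at W12 (1.13, s.e. 0.23, adjusted *P* = 0.00494). *Actn4* was at 454 and 505 TPM at D0 and 212 and 284 TPM at W12 (−0.96, s.e. 0.25, adjusted *P* = 0.0144), after 603 and 345 TPM at W6 (W12 against W6 −0.89, s.e. 0.25, adjusted *P* = 0.0371). *Fscn1*, whose product fascin bundles filaments in filopodia and invasive protrusions, was at 8.73 and 7.89 TPM at D0, 12.9 and 10.01 at W1, 24.3 and 22.2 at W2, 77.5 and 34.1 at W6, and 31.6 and 51.4 at W12. It was higher from W2 on, 6.71-fold by the means at W6 (2.50, s.e. 0.36, adjusted *P* = 0.00157) and 4.99-fold at W12 (2.15, s.e. 0.36, adjusted *P* = 0.00205), although the W6 libraries differed from each other more than those of any other timepoint. *Flna*, the filamin that links filaments to integrins, was at 83.6 and 118 TPM at D0 and 45.9 and 58.7 TPM at W12 (−0.93, s.e. 0.19, adjusted *P* = 0.00509), with 72.2 and 65.6 TPM at W6 not passing (−0.52, s.e. 0.19, adjusted *P* = 0.0630; 0.0108 without D0 replicate 1). *Actn4* at W12 was lost without D0 replicate 2 (0.0694) or W12 replicate 1 (0.105), and against W6 *Actn1* and *Actn4* were lost without W6 replicate 1 (0.128 and 0.141), W12 replicate 1 (0.193 and 0.232) or W12 replicate 2 (0.0694 and 0.0632). *Fscn1* at W2 (1.38, s.e. 0.36, adjusted *P* = 0.0345) was lost without any one of the 4 libraries (0.0686 to 0.158), and it did not pass between W2 and W6 (1.11, s.e. 0.36, adjusted *P* = 0.0676) except without W6 replicate 2 (0.0175).

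Of the 7 adhesion linkers none passed at W1 or W2, where 9.89% and 15.7% of all genes did. At W12, 4 were lower and 1 higher (57.1% lower, beside 25.1% of all genes), and their log2 changes had a median of −0.85. Among the lower ones, *Tln1*, *Vcl* and *Pxn* lost their calls with the correction for length and GC content. *Tln1* encodes talin, which binds and activates integrins, and was at 29.9 and 52.5 TPM at D0, 53.7 and 54.8 at W1, 50.7 and 51.2 at W2, 29.4 and 22.3 at W6, and 18.0 and 17.4 at W12. Its W1 and W2 libraries lay near the higher D0 library, and it was lower from W2 to W6 (−0.96, s.e. 0.24, adjusted *P* = 0.0340) and at W12 against D0 (−1.12, s.e. 0.24, adjusted *P* = 0.00689). *Vcl*, encoding vinculin, which reinforces talin and cadherin contacts, ran from 37.2 and 37.5 TPM at D0 through 34.7 and 34.1, 29.9 and 29.0, and 27.6 and 21.3 to 22.7 and 24.9 TPM (W12 −0.63, s.e. 0.16, adjusted *P* = 0.0117). *Pxn*, for the scaffold paxillin, had 24.1 and 30.6 TPM at D0 and 11.7 and 15.49 TPM at W12 (−0.96, s.e. 0.25, adjusted *P* = 0.0144). *Vasp*, which elongates filaments at adhesions, had 62.3 and 65.6 TPM at D0, 44.3 and 26.9 at W6 and 26.3 and 36.3 at W12 (−1.02, s.e. 0.24, adjusted *P* = 0.00860). Its family member *Enah* moved the other way, from 3.998 and 1.26 TPM at D0 to 9.43 and 9.09 TPM at W12 (1.61, s.e. 0.39, adjusted *P* = 0.0110), and *Ptk2*, the focal adhesion kinase, stayed at 19.1 to 29.2 TPM and passed in no comparison.

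*Zyx*, which encodes zyxin, a protein that gathers at strained filaments and adhesions, was at 41.3 and 90.6 TPM at D0, 132 and 131 at W1, 75.3 and 92.0 at W2, 66.1 and 46.3 at W6, and 28.2 and 40.1 at W12. Both W1 libraries lay above and both W12 libraries below those of D0, and the F test over the course called it (adjusted *P* = 0.0121). Neither W1 (log2 change 1.09, s.e. 0.34, adjusted *P* = 0.0866) nor W12 (−0.85, s.e. 0.34, adjusted *P* = 0.0763) passed, and the 2 D0 libraries differed widely. Without D0 replicate 2 the W1 difference of *Zyx* passed (0.0139), and without D0 replicate 1 the W12 difference did (0.00474). Among the other linkers, *Tln1* at W12 held without any one library, though not with the correction for length and GC content (−0.20, adjusted *P* = 0.341), and its change from W2 to W6 was lost without W2 replicate 1 (0.164), W2 replicate 2 (0.150) or W6 replicate 2 (0.137). At W12, *Vcl*, *Pxn*, *Vasp* and *Enah* were lost without W12 replicate 1 (0.0730, 0.102, 0.0711 and 0.0638), *Pxn* and *Enah* without D0 replicate 2 (0.0860 and 0.0642), and *Enah* without W12 replicate 2 (0.0553). The calls at W6 of *Vcl* (−0.60, s.e. 0.16, adjusted *P* = 0.0187), *Vasp* (−0.87, s.e. 0.24, adjusted *P* = 0.0228) and *Enah* (1.44, s.e. 0.39, adjusted *P* = 0.0237) were each lost without D0 replicate 2 (0.0634, 0.0964 and 0.139) or W6 replicate 2 (0.0690, 0.0965 and 0.118).

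Among the 3 ERM genes the share of *Ezr* fell and that of *Msn* rose early, while their sum fell. The summed ERM TPM was 606 and 640 at D0, 461 and 433 at W2, and 373 and 458 at W12. *Ezr*, for ezrin, the ERM protein typical of epithelia, was at 497 and 524 TPM at D0, 316 and 324 at W1, 207 and 212 at W2, 237 and 185 at W6, and 203 and 243 at W12. *Msn*, for moesin, better known from leukocytes and endothelium, was at 67.8 and 66.5 TPM at D0, 173 and 162 at W1, 192 and 164 at W2, 131 and 132 at W6, and 133 and 175 at W12. The replicates of both genes were close, and in all 8 later libraries *Ezr* lay below and *Msn* above both D0 libraries. *Ezr* was 2.44-fold lower at W2 (log2 change −1.28, s.e. 0.16, adjusted *P* = 0.00127) and 2.29-fold lower at W12 (−1.20, s.e. 0.16, adjusted *P* = 0.000586), and *Msn* was 2.65-fold higher at W2 (1.39, s.e. 0.16, adjusted *P* = 0.000935) and 2.29-fold higher at W12 (1.17, s.e. 0.16, adjusted *P* = 0.000669). As a share of the summed ERM TPM, *Ezr* went from 82.0% in both D0 libraries to 44.9% and 48.9% at W2 and 54.3% and 53.1% at W12, and *Msn* from 11.2% and 10.4% to 41.6% and 37.8% and then 35.7% and 38.1%. *Rdx*, for radixin, was at 41.2 and 48.7 TPM at D0, up to 70.8 TPM at W6 and at 37.2 and 40.2 TPM at W12, and differed between W6 and W12 alone (−0.63, s.e. 0.17, adjusted *P* = 0.0350). At W1 *Ezr* (−0.67, s.e. 0.16, adjusted *P* = 0.0288) was lost without D0 replicate 2 (0.0793) or either W1 library (0.141 and 0.159), and the call of *Rdx* without W6 replicate 2 (0.115) or either W12 library (0.178 and 0.0977). From D0 to W6 the endothelial list was at 2.24 TPM or less, and the immune list was at 31.4 and 19.3 TPM at D0, 20.8 to 30.9 TPM at W1 and W2 and 6.73 and 5.97 TPM at W6. At W12 the endothelial list was at 71.1 and 156 TPM and the immune list at 107 and 130 TPM. Their part in the level of *Msn* was not tested.

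The abundant small GTPases kept to narrow ranges. *Rhoa*, which activates the ROCK kinases, stayed at 265 to 346 TPM, *Rac1*, which drives lamellipodia, at 297 to 415 TPM, and *Cdc42*, which drives filopodia and polarity, at 270 to 347 TPM. At W12 their log2 changes from D0 were −0.30 (s.e. 0.14, adjusted *P* = 0.115), −0.28 (s.e. 0.14, adjusted *P* = 0.134) and 0.10 (s.e. 0.12, adjusted *P* = 0.552). With the correction for length and GC content *Rhoa* passed at W12, and *Cdc42* turned negative and passed, with the values given in the closing section. *Rhob* and *Rhoc*, which were scarcer, both passed the test at W12. *Rhob*, an endosomal GTPase whose gene responds fast to growth factors and stress, was at 59.3 and 76.1 TPM at D0, 29.2 and 18.5 at W1, 25.7 and 15.8 at W2, 22.9 and 13.4 at W6, and 13.6 and 15.4 at W12. It was lower at every later timepoint, 4.68-fold at W12 (−2.14, s.e. 0.32, adjusted *P* = 0.00124), in the same libraries in which the immediate-early list was below D0. The calls of *Rhob* at W1 (−1.49, s.e. 0.32, adjusted *P* = 0.0222) and W2 (−1.69, s.e. 0.32, adjusted *P* = 0.0102) were lost without D0 replicate 2 (0.0976 and 0.0559), W1 replicate 2 (0.180) or W2 replicate 2 (0.0884).

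*Rhoc*, a GTPase linked to cell motility, was low at D0 with 0.171 and 0.128 TPM, and was at 0.376 and 0.238 TPM at W1, 0.712 and 0.425 at W2, 2.17 and 13.8 at W6, and 14.2 and 28.9 at W12. No library of a later timepoint overlapped those of D0, and the bulk of the increase came after W2. *Rhoc* had the largest change of the 43 genes at W12 (log2 change 4.21, s.e. 0.62, adjusted *P* = 0.00107), higher than D0 at W6 as well (2.58, s.e. 0.62, adjusted *P* = 0.0140) and higher at W6 than at W2 (2.13, s.e. 0.62, adjusted *P* = 0.0477). The W6 libraries differed by far. The W6 call was lost without D0 replicate 2 (0.0684), the one against W2 without W2 replicate 1 (0.174), W2 replicate 2 (0.192) or W6 replicate 2 (0.138), and W12 did not pass against W6 (1.64, s.e. 0.62, adjusted *P* = 0.0947) unless W6 replicate 2 was left out (0.00394). Some markers of other cells were up in libraries with much *Rhoc*. The fibroblast gene *Dcn* was at 51.2 TPM in W6 replicate 2 and 13.2 and 27.2 TPM at W12, against at most 2.06 TPM in the other 7 libraries, and the fibroblast list, nearly all *Dcn* in these 3 libraries, summed to 52.3, 14.3 and 29.5 TPM. The collagens of the list did not rise with *Dcn*. *Col1a1* stayed at or under 0.481 TPM, and *Col1a2* (1.08 TPM) and *Col3a1* (0.791 TPM) were highest in D0 replicate 2. *Fbn1* was at 0.580 and 1.41 TPM at W12. The W12 libraries also had the endothelial list at 71.1 and 156 TPM. Their part was not tested. Of the kinases, *Rock1* was at 32.5 and 41.6 TPM at D0 and 25.4 and 27.2 TPM at W12 (−0.47, s.e. 0.15, adjusted *P* = 0.0373), a call lost without D0 replicate 2 (0.172), W12 replicate 1 (0.154) or W12 replicate 2 (0.0900), and with median-ratio scaling (0.104) or quantile normalization (0.126). *Rock2* stayed at 16.0 to 23.0 TPM and passed in no comparison.

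**Figure D4:**
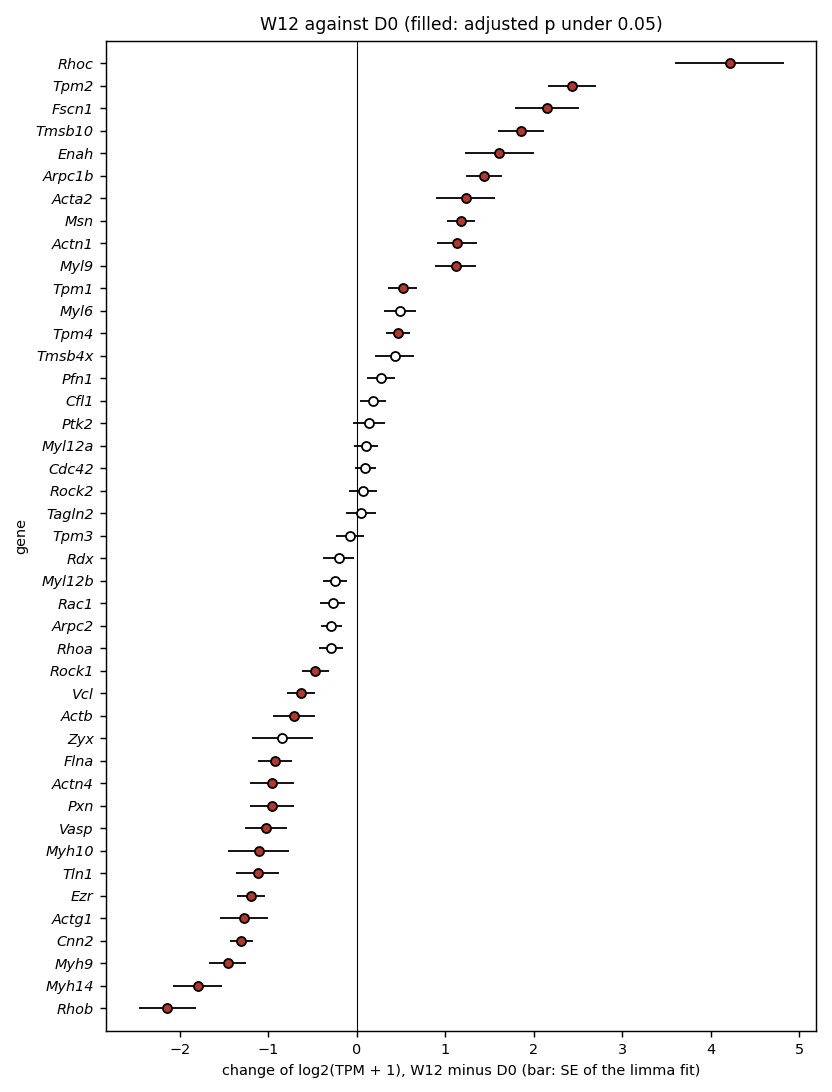
Change of log2(TPM + 1) at W12 against D0 for the 43 tested genes, ordered by size, with bars for the s.e. of the fit and filled points for an adjusted *P* under 0.05. *Rhoc*, at 4.21, and *Tpm2*, at 2.44, have the highest values, and *Rhob*, at −2.14, and *Myh14*, at −1.80, the lowest.

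Because TPM are per length, levels of paralogues could be set side by side. The tropomyosin pool grew from 723 and 594 TPM at D0 to 998 and 1131 TPM at W12, and *Tpm2* went from 11.4% and 7.37% of it to 30.1% and 31.9%, while *Tpm3* went from 32.1% and 33.3% to 18.8% and 19.5%. These shares leave out *Tpm3-rs7*, a row that shares sequence with *Tpm3* and went from 0.390 and 15.6 TPM at D0 to 64.2 and 108 TPM at W12, so the share of *Tpm3* is uncertain. Among the actins *Actg1* made up 41.8% and 45.0% at D0, 24.2% and 23.5% at W6 and 33.7% and 34.5% at W12, with *Acta2* under 0.159% in every library. The share of *Actn1* in the α-actinins was 1.44% and 1.02% at D0 and 5.59% and 5.24% at W12, and that of *Tmsb10* in the β-thymosins was 3.69% and 3.33% and then 8.22% and 9.72%. In each of these families the member with the largest share at D0 still had it at W12, and among the tropomyosins, led by *Tpm4*, *Tpm2* passed *Tpm3*. Among the myosin heavy chains, of which all 3 were lower at W12, the share of *Myh9* was 65.6% and 61.5% at D0 and 71.9% and 69.4% at W12.

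**Figure D5:**
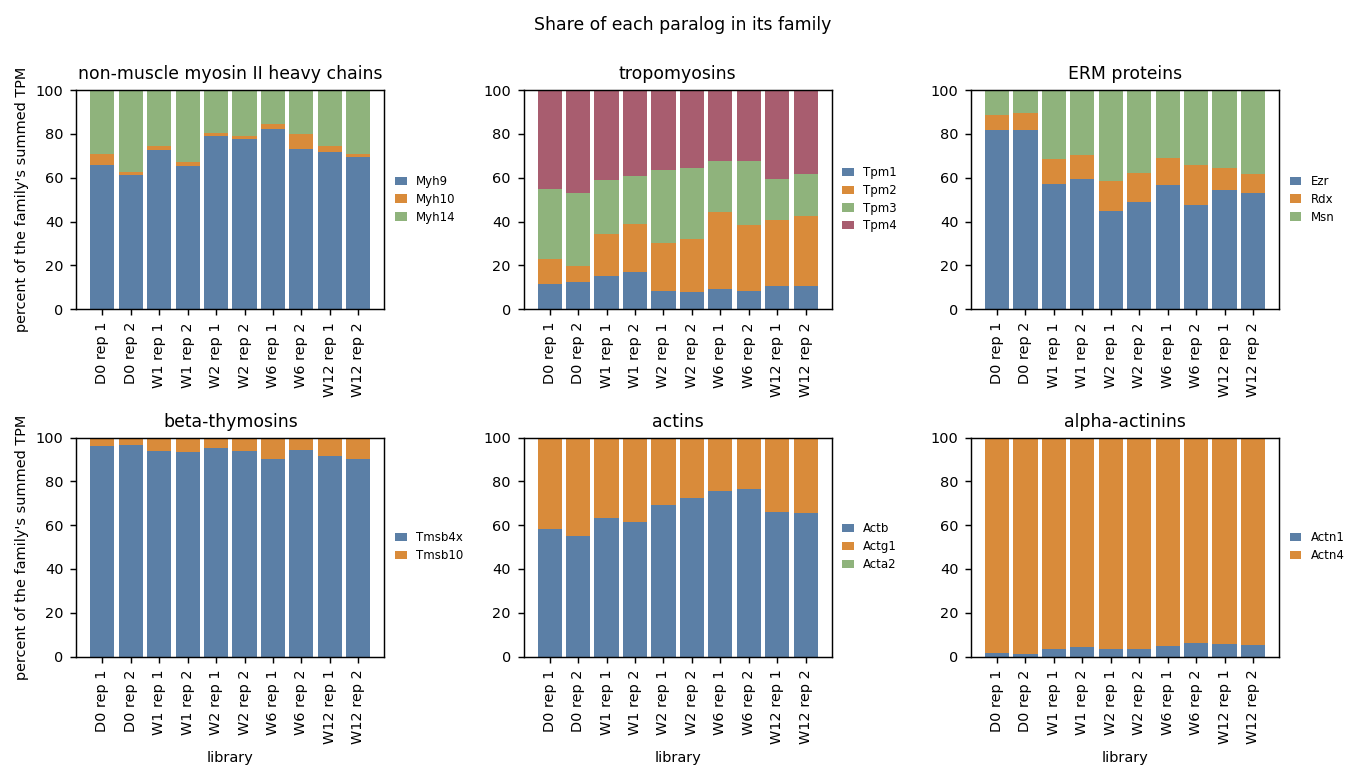
Stacked bars, from 0 to 100%, of the share of each paralogue in the summed TPM of its family, 1 bar per library, for the myosin heavy chains, tropomyosins, ERM proteins, β-thymosins, actins and α-actinins. In the ERM panel *Ezr* goes from 82.0% in both D0 libraries to 54.3% and 53.1% at W12 as *Msn* goes from 11.2% and 10.4% to 35.7% and 38.1%.

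The direction of change at W6 and W12 went along with transcript length. Over all tested genes with a length, the Spearman correlation, across genes, of the length of the longest transcript with the log2 change was −0.334 at W12, −0.255 at W6 and 0.009 at W1. At W12 the 2315 genes with 5000 bases or more had a median of −0.44, and the 2888 with fewer than 1500 bases one of 0.33. Of the 43 tested cytoskeletal genes, 9 are that long, among them *Flna*, *Tln1*, *Myh9*, *Myh10*, *Myh14*, *Vcl* and *Rock1*, and 7 of these 9 were lower at W12 with 1 higher (*Enah*), where 40.2% of all long genes were lower. With a correction for length and GC content, the calls at W12 were lost for *Myh10* (adjusted *P* = 0.320), *Tpm4* (0.861), *Actn4* (0.172), *Flna* (0.305), *Vcl* (0.215), *Tln1* (0.341), *Pxn* (0.338) and *Rock1* (0.126). The calls of *Myh9* and *Myh14* held, with the smaller changes given above. Among the other lower genes, those of *Actb*, *Actg1*, *Cnn2*, *Ezr* and *Rhob* held. Of the adhesion linkers lower at W12, *Vasp* alone thus kept its call. In the other comparisons the correction ended the calls of *Myl9* at W1 (0.0508), of *Pfn1* (log2 change 0.24, 0.213) and *Tagln2* (0.0522) at W6, of *Myh9* (0.0978), *Myh14* (0.155) and *Tln1* (0.0886) between W2 and W6, and of *Actb* (0.0645), *Myh9* (0.525), *Actn1* (0.129) and *Actn4* (0.139) between W6 and W12.

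Some of these genes share sequence with other annotated genes, so the authors' quantification could have split their reads. Of all stretches of 31 bases in their transcripts, the share also found in another gene was 62.2% for *Tagln*, 51.3% for *Rac1* (mostly with *Daglb*, at 9.26 TPM or less), 40.2% for *Actg1* (mostly with *Gm12715*, at 0.841 TPM or less), 32.0% for *Tmsb10*, 30.5% for *Arpc1b* (mostly with *Pdap1*, at 26.7 to 52.6 TPM) and 25.3% for *Vcl* (all with *Ap3m1*), and none was shared for *Tmsb4x*, *Flna*, *Fscn1*, *Pxn*, *Vasp*, *Rdx*, *Rhob* and *Rhoc*. *Ap3m1* was at 52.8 and 40.2 TPM at D0 and 51.6 and 56.6 TPM at W12, above *Vcl* in all 10 libraries, so the level of *Vcl* is uncertain. *Gm49909*, a row that shares 26.0% of the stretches of *Myl12b* and carries that name in GENCODE M21, was listed at 1033 to 1408 TPM in the 10 libraries, well above the 142 to 215 TPM of the *Myl12b* row, so the level of this light chain is uncertain. *Tpm3-rs7*, which shares 26.9% of the stretches of *Tpm3*, stood, in TPM, at 0.390 and 15.6 in the D0 libraries, 60.5 and 40.8 at W1, 0.258 and 0.279 at W2, 130 and 0.575 at W6, and 64.2 and 108 at W12. It differed widely between the replicates at D0 and W6, and the level of *Tpm3* is uncertain with it. *Gm5526*, which shares 8.65% of those of *Myl6*, was at 0.130 to 4.69 TPM to W6 and at 126 and 105 TPM at W12.

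The 5 lists of further genes of the pathway gave the setting of these changes. At W12, 3 of the 19 genes of Arp2/3 and its activators were higher and 4 lower, 5 and 5 of the 19 tested genes of turnover and capping, 6 and 7 of the 22 genes of the integrin plaque, 3 and 6 of the 15 regulators of myosin, and 4 and 5 of the 10 tested genes of the SRF axis (17.9% and 25.1% of all genes were higher and lower). The medians of their log2 changes at W12 were −0.16, 0.19, −0.24, −0.59 and −0.49, against −0.08 for all genes. *Srf* itself, named here after its values were seen, was at 81.7 and 110 TPM at D0 and 30.8 and 32.3 TPM at W12 (log2 change −1.56, s.e. 0.24, adjusted *P* = 0.00124). At W1, 5 of 22 genes of the integrin plaque were higher and none lower (5.79% and 4.1% of all genes), and at W12 both directions were present in each of the 5 lists.

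The gene with the largest rise and the one with the largest fall at W12 were taken from each list. *Cnn3*, a further calponin, was at 2.72 and 3.94 TPM at D0 and 87.4 and 125 TPM at W12 (log2 change 4.62, s.e. 0.29, adjusted *P* = 1.72e-05), opposite to its relative *Cnn2*. *Fermt2*, for kindlin-2, which activates integrins with talin, went from 0.358 and 0.209 TPM at D0 through 5.23 and 9.24 at W1, 5.68 and 4.19 at W2 and 11.2 and 10.1 at W6 to 11.2 and 23.3 TPM at W12 (3.75, s.e. 0.35, adjusted *P* = 0.000109), and *Fhl2*, a partner of SRF, from 4.69 and 0.696 to 59.8 and 73.2 TPM (4.43, s.e. 0.46, adjusted *P* = 0.000185). *Twf1*, for the monomer-binding twinfilin, was higher by 1.33 (s.e. 0.20, adjusted *P* = 0.00115). *Ccn1*, a target of SRF and YAP, had the largest fall, from 2805 and 4956 to 157 and 252 TPM (−4.22, s.e. 0.54, adjusted *P* = 0.000562), *Tns1*, for tensin, went from 13.2 and 29.4 to 2.30 and 2.75 TPM (−2.56, s.e. 0.32, adjusted *P* = 0.000485), and *Plec*, for plectin, which ties keratin filaments to hemidesmosomes, from 120 and 268 to 47.9 and 32.1 TPM (−2.17, s.e. 0.36, adjusted *P* = 0.00201). These 3 genes were each higher in D0 replicate 2 than in D0 replicate 1. *Myo1c* (−1.53, s.e. 0.25, adjusted *P* = 0.00185) and *Wasf2* (−1.08, s.e. 0.18, adjusted *P* = 0.00224) were lower as well. *Arpc5l* was higher by 0.58 (s.e. 0.20, adjusted *P* = 0.0430), which was lost without D0 replicate 2 (0.203), W12 replicate 1 (0.0902) or W12 replicate 2 (0.187), whereas the other 9 held their calls in every alternative run that sets no limit on the size of the change. With the correction for length and GC content the changes of *Plec* (−1.11), *Tns1* (−1.62), *Myo1c* (−0.83), *Wasf2* (−0.35) and *Srf* (−0.89) were smaller.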

How the data were processed

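EpdSCs were sorted by FACS, their RNA was amplified from low input and 10 libraries were sequenced, 2 per timepoint. Per the labels and the methods, the authors trimmed reads with Skewer, quantified them with Salmon 1.4.0 against a GENCODE M24 index of GRCm38 that also held the transgene, and summed transcripts to genes with Tximport 1.12.3, and deposited TPM. A second file, on E15.5 placode cells, holds the authors' DESeq2 comparison (fold changes and P values) and was not used. TPM hold no depth. The study tested counts, which TPM do not permit.

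Of 54332 rows, 13110 genes averaging 1 TPM or more were tested on log2(TPM + 1), a pseudocount of 1, by limma 3.58.1 (R 4.3.3), with 1 fit of the 5 timepoint means over 10 libraries, eBayes with trend, two-sided tests and Benjamini-Hochberg adjustment over all 13110 genes, at a threshold of 0.05. The step was tested on simulated data. Shares of families are sums of TPM. Transcript lengths and positions are from GENCODE M21 on GRCm38, promoter windows from RefSeq on GRCm38.p6. Python 3.11.15 with numpy 2.4.6, pandas 2.3.3 and matplotlib 3.10.9 served the other steps.

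Groups came from the sample labels. The text names all 45 members and, of each pathway list reported, the gene with the largest rise and the largest fall at W12. Members and lists were chosen with earlier results of these data known. Alternatives were another pseudocount, filter, scaling or variance model, the 4 compared libraries alone, a limit on the size of change, a replicate block and each library left out. The length and GC correction and the crossed block were chosen after seeing the data. The pooled shares of 1 gene family and 1 pathway list are not reported here.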

Additional observations from a re-analysis of the deposited data

How the results depend on the processing

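Of 81 calls of the cytoskeletal genes over the 6 comparisons, none changed its sign in any alternative run. With all genes above 0 TPM tested, 6 were called at W1, 6 at W2, 11 at W6, 1 between W2 and W6 and 2 between W6 and W12, beside 1.56%, 2.59%, 7.96%, 2.41% and 6.22% of all genes. With only the compared libraries in the fit, 3 were called at W1, 8 at W6, 4 between W2 and W6 and 2 between W6 and W12, beside 3.14%, 8.34%, 7.37% and 6.77% of all genes. Without the trend, 3 were called between W2 and W6, beside 14.1% of all genes. An absolute log2 change of at least 1 left 12 at W6, 2 between W2 and W6 and 0 between W6 and W12, beside 17.9%, 8.61% and 10.6% of all genes. Between W6 and W12 limma gave 11 of the cytoskeletal genes at an unadjusted *P* under 0.05.

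Median-ratio scaling gave 3 calls between W6 and W12 (16.4% of all genes were called), 2 higher and 1 lower, against 0 and 6 in the main fit, and moved the median of all genes from −0.16 to 0.00 there and from −0.08 to 0.04 at W12 against D0, so changes at W12 are to be read relative to that shift. Leaving out a library changed the share of all genes called as well as the counts that follow. With each library left out in turn, 3 to 15 genes were called at W1, 5 to 12 at W2, 10 to 23 at W6, 16 to 30 at W12, 0 to 5 between W2 and W6 (8 and 7 at an unadjusted *P* under 0.05 where limma called 0), 1 to 6 between W6 and W12 and 20 to 32 by the F test.

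The replicate block gave 9, 9, 18 and 25 calls at W1, W2, W6 and W12, 2 between W2 and W6, 3 between W6 and W12 and 27 by the F test. In the same order, 8.06%, 13.0%, 28.7%, 40.1%, 10.6%, 16.5% and 52.2% of all genes were called. Same-numbered libraries are of different mice, and their deviations had correlations of −0.129 to 0.0934, so the numbers do not pair them. With crossed numbers, 11 were called at W1, 18 at W6 and 6 between W6 and W12, beside 9.34%, 32.7% and 20.3% of all genes. Among the uncalled changes recomputed, which were not all, those with another sign were the ones of *Actb* at W6, which ran from −0.15 without D0 replicate 1 to 0.51 without D0 replicate 2, of *Cdc42* at W12 with quantile normalization (−0.060), and, with the length and GC correction at W12, of *Cdc42* (−0.43, adjusted *P* = 0.0262) and *Tmsb4x* (−0.52, adjusted *P* = 0.0186). That correction also gave *Rhoa* at W12 an adjusted *P* of 0.0122. No depth can be read from TPM, so what depth limits is unknown.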

Other observations

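A few further genes of the wider pathway were chosen after their values were seen. *Gsn*, for gelsolin, which severs and caps filaments, was at 688 and 1574 TPM at D0, 3941 and 3348 at W1, 3725 and 3168 at W2, 1112 and 638 at W6, and 442 and 513 at W12. It was high at W1 and W2 and back near or below D0 later, and the W1 change (log2 1.80, s.e. 0.38, adjusted *P* = 0.0194 by limma) was lost without W1 replicate 1 (0.109) or W1 replicate 2 (0.101). *Ccn2*, a target of SRF and YAP like *Ccn1*, went from 7.27 and 15.3 TPM at D0 to 248 and 307 TPM at W1 (4.58, s.e. 0.33, adjusted *P* = 0.000195) and was at 45.0 and 52.1 TPM at W12, whereas *Ccn1* was far below D0 at W12. *Cald1*, for caldesmon, which binds filaments coated by tropomyosin, rose from 3.74 and 1.37 TPM at D0 to 43.3 and 64.9 TPM at W12 (4.01, s.e. 0.34, adjusted *P* = 7.27e-05), and this call held in every alternative that set no limit on the size of the change.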
